A study of Homo sapiens with 12 samples.

Results

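The transcription factors that drive epithelial to mesenchymal transition (EMT) were followed as a family of 8 genes, *ZEB1*, *ZEB2*, *SNAI1*, *SNAI2*, *TWIST1*, *TWIST2*, *TCF4* and *PRRX1*, chosen by symbol from the 23346 genes in the table. All 8 had a row. RNA-seq had been carried out on 2 human pancreatic adenocarcinoma cell lines, CFPAC-1 and SW1990, each separated by cell sorting into cells with strong surface staining for the GCTM-5 antibody and cells without it. The 4 groups were GCTM-5 negative and GCTM-5 positive SW1990 cells and GCTM-5 negative and GCTM-5 positive CFPAC-1 cells, with 3 samples in each and 12 in all. Both lines were grown as untreated monolayers with serum, and every sample, negative or positive, was stained and sorted before RNA extraction. The study's methods describe the 3 samples of a group as separate sorts, so that p-values measure the spread between sorts of 1 cultured line and not between tumours.

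EMT factors are DNA-binding repressors and activators that let epithelial cells loosen their junctions and take on a mesenchymal form. The zinc finger proteins of the ZEB and SNAI families bind E-boxes in the promoters of epithelial genes, of which E-cadherin is the best known, whereas TWIST proteins and TCF4 bind E-boxes as basic helix-loop-helix dimers and PRRX1 binds DNA through a homeodomain. ZEB1 and the microRNAs of the miR-200 family repress each other, and in pancreatic carcinoma ZEB1 is known for its link to loss of E-cadherin and to invasion.

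Sequences of 2 kinds bear on the values that follow. The first is the mature miR-200 family, whose seed (bases 2 to 8, in capitals) pairs with sites in *ZEB1* and *ZEB2* transcripts. Sequences were taken from RefSeq (GRCh38.p14), and the 5 members fell into 2 seed groups with seeds AAUACUG and AACACUG. The first group held miR-200b, miR-200c and miR-429.
hsa-miR-200b-3p: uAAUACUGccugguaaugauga
hsa-miR-200c-3p: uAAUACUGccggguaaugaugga
hsa-miR-429: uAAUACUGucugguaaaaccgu
The second held miR-200a and miR-141.
hsa-miR-200a-3p: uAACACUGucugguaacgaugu
hsa-miR-141-3p: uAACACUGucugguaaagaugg

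The second kind is the E-box CAGGTG, which reads CACCTG on the other strand, in the 250 bases before the start of epithelial genes that EMT factors are known to repress. The 3 windows printed here (RefSeq, GRCh38.p14, gene strand, E-boxes in capitals) are shown because they held the most matches among the genes of that programme. *CRB3* encodes an apical polarity protein, *CLDN7* a tight junction claudin and *TMEM30B* a subunit of phospholipid flippases.
CRB3 (chr19:6464021-6464270, plus strand): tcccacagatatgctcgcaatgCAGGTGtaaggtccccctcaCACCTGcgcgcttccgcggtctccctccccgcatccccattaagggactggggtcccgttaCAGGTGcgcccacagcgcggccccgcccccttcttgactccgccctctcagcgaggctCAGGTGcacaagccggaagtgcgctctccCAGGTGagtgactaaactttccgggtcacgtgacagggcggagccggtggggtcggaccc
CLDN7 (chr17:7262479-7262728, minus strand): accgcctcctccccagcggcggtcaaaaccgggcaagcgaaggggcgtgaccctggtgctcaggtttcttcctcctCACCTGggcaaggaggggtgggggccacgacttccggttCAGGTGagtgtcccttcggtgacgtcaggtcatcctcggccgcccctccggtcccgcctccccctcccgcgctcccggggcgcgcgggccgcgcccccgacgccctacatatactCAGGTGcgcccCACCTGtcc
TMEM30B (chr14:61281339-61281588, minus strand): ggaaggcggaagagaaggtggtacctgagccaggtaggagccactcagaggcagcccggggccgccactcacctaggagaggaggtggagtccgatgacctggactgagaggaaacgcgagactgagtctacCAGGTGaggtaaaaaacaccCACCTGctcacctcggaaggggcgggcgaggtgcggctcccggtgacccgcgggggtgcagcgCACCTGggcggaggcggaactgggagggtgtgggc
The *CRB3* window held 5 E-boxes, the printed *CLDN7* window 4 and the *TMEM30B* window 3. Another *CLDN7* window (chr17:7263214-7263463) held 0. Of the 22 genes listed for this programme, 13 had a promoter entry and 10 of these held at least 1 E-box, against 20.6% of the 27305 genes with an entry. At least 3 matches were found in 0.464% of the 35116 windows. These are matches of letters and not measured binding sites, and several genes of the list are known as targets because of such E-boxes.

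Values are RPKM, read counts scaled by the authors to gene length and library size, so that levels can be set side by side between genes. Reads behind each RPKM were recovered from the table, and library totals ran from 9969697 to 26159330. Ductal keratins *KRT7*, *KRT8*, *KRT18* and *KRT19* were high in all 12 samples, at 172 RPKM or more for each gene. Of the 6 ductal markers listed, 3 were called higher in positive SW1990 cells, against 4.59% of all genes. These were *KRT8*, *KRT18* and *KRT19* (1.39, 1.29 and 1.57), while *KRT7* was not called. The other 2 ductal markers listed were low in SW1990, where *TSPAN8* ranged from 0.851 to 2.62 RPKM in negative and from 0.0999 to 0.417 RPKM in positive samples (-2.15, called lower) and *CLDN18* did not exceed 0.140 RPKM. *CLDN18* was called higher in positive CFPAC-1 cells (2.35, SE 0.43), and none of the keratins was called there. Differences were tested with limma on log2(RPKM + 0.1) over 16236 genes, and calls needed a change of over 2-fold and an unadjusted p under 0.01. The log2 fold changes are on this scale and understate changes of low genes of usual length. This does not hold for short hairpin genes, where 1 read already exceeds 0.1 RPKM. Of the 8 factors, 6 passed the filter on low values, a mean of at least 0.1 RPKM, and *TWIST1* and *PRRX1* did not. In bulk RNA, fewer cells with a transcript and less transcript per cell cannot be told apart.

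In SW1990, 3 EMT factors were lower in GCTM-5 positive cells, *ZEB1*, *ZEB2* and *SNAI1*, and none was higher. Among all genes tested 7.48% were called lower and 4.59% higher in this comparison. In CFPAC-1 the called members were *ZEB1*, which was lower, and *TWIST2*, which was higher, against 4.13% of genes called lower and 5.65% called higher. *ZEB1* was thus the only member called in the same direction in both lines by this fit. The paper, which used a count method, names *ZEB2* as well as *ZEB1* among genes higher in negative cells. *SNAI2*, which had the highest mean of the 8 in both CFPAC-1 groups and in positive SW1990 cells, was not called between positive and negative cells of either line.

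**Figure D1:**
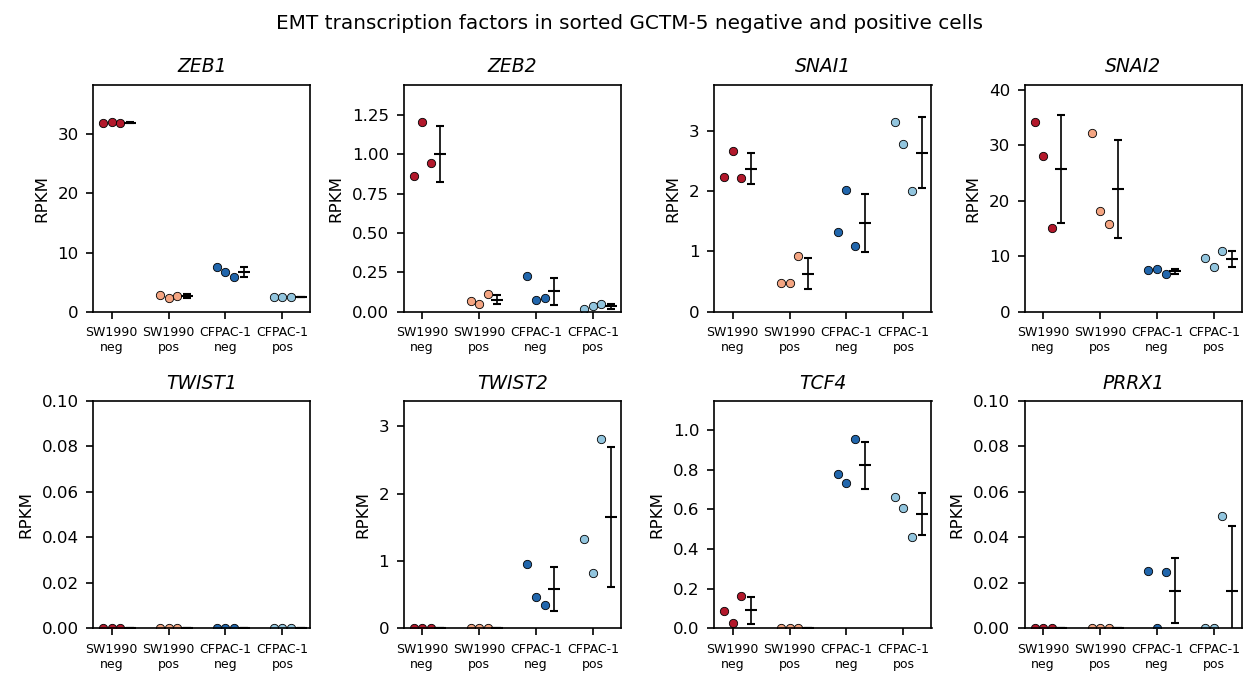
RPKM of the 8 EMT transcription factors in each of the 12 samples (1 panel per gene, each with its own linear axis from 0). Points are samples, the black marks the mean and SD of the 3 samples of a group. *ZEB1* in negative SW1990 cells lies at 31.9 to 32.0 RPKM, above all other samples, while *TWIST1* is at 0 in all of them.

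*ZEB1* (chr10:31607424-31818742, plus strand, GRCh37) encodes a zinc finger and homeodomain repressor of epithelial genes. It stood at 32.0, 32.0 and 31.9 RPKM in the 3 samples of negative SW1990 cells and at 2.91, 2.31 and 2.69 RPKM in positive SW1990 cells. In CFPAC-1 it stood at 7.65, 6.78 and 5.94 RPKM in negative cells and at 2.56, 2.49 and 2.48 RPKM in positive cells. The groups did not overlap in either line, and the order of the means was negative SW1990, negative CFPAC-1, then both positive groups. The fitted change was -3.56 (SE 0.12) on the log2 scale in SW1990 (adjusted p = 1.48e-08) and -1.39 (SE 0.12) in CFPAC-1 (adjusted p = 1.91e-05). These rest on 250 to 361 reads per sample in positive SW1990 cells and 158 to 428 in positive CFPAC-1 cells.

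The drop in *ZEB1* was larger in SW1990, with a difference between the lines of -2.17 (SE 0.17, adjusted p = 7.98e-06). Negative cells of SW1990 held more *ZEB1* than negative cells of CFPAC-1, by 2.23 on the log2 scale (SE 0.12, adjusted p = 1.25e-08). In positive cells the 2 lines differed by 0.060 (SE 0.12, adjusted p = 0.68), a value that turned to -0.013 without positive SW1990 replicate 1.

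The antisense transcript *ZEB1-AS1* starts within the *ZEB1* locus and runs the other way (chr10:31495207-31609376, minus strand). Its RPKM ranged from 9.07 to 9.68 in negative and 6.78 to 8.90 in positive SW1990 cells, and from 9.01 to 10.3 and 6.98 to 8.98 in the same order in CFPAC-1. It was not called in either line, at -0.33 (SE 0.13) in SW1990 and -0.29 (SE 0.13) in CFPAC-1. Whether counting used strand is not given in the sources used here, so that reads in the part shared with *ZEB1* cannot be placed on 1 of the genes.

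*ZEB2* (chr2:145121931-145278624, minus strand), the paralogue of *ZEB1*, was far less abundant. It read 0.860, 1.20 and 0.946 RPKM in negative SW1990 cells and 0.0708, 0.0505 and 0.111 RPKM in positive ones. In CFPAC-1 it read 0.229, 0.0745 and 0.0904 RPKM in negative cells and 0.0197, 0.0366 and 0.0516 RPKM in positive cells. Neither line showed overlap between its groups, but negative CFPAC-1 replicate 1 stood well above the other negative samples, and the positive CFPAC-1 values rest on 6 to 8 reads each. The change was -2.64 (SE 0.30, adjusted p = 3.73e-05) in SW1990, while in CFPAC-1 it was -0.71 (SE 0.30, adjusted p = 0.0786) and was not called. At a pseudocount of 1 the SW1990 change was -0.89, under 2-fold, and the call was lost, while voom on recovered reads called *ZEB2* lower in CFPAC-1 as well (-1.80). *ZEB2-AS1*, the antisense neighbour, had at most 1 read in any sample.

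*SNAI1* (chr20:48599517-48605423, plus strand) encodes Snail, a short-lived zinc finger repressor. It read 2.22, 2.67 and 2.22 RPKM in negative SW1990 cells and 0.483, 0.483 and 0.926 RPKM in positive ones. In CFPAC-1 the values were 1.32, 2.01 and 1.09 RPKM in negative cells and 3.14, 2.78 and 2.00 RPKM in positive cells. The SW1990 groups were apart, whereas in CFPAC-1 the highest negative sample slightly exceeded the lowest positive sample. *SNAI1* fell by 1.81 on the log2 scale in SW1990 (SE 0.28, adjusted p = 0.000415), and its CFPAC-1 value was 0.82 (SE 0.28, adjusted p = 0.0377), under the 2-fold threshold. Without negative CFPAC-1 replicate 2, the CFPAC-1 value became 1.05 and was called.

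*SNAI2* (chr8:49830157-49834299, minus strand) encodes Slug. Its level was 34.1, 28.1 and 15.1 RPKM in negative SW1990 cells and 32.1, 18.2 and 15.9 RPKM in positive SW1990 cells. In CFPAC-1 it was 7.53, 7.63 and 6.75 RPKM in negative cells and 9.62, 8.06 and 10.9 RPKM in positive cells. The SW1990 groups overlapped over nearly their whole range, and all SW1990 samples lay above all CFPAC-1 samples. The change was -0.21 (SE 0.29, adjusted p = 0.647) in SW1990, with a sign that turned to 0.028 without negative SW1990 replicate 1, and 0.37 (SE 0.29, adjusted p = 0.348) in CFPAC-1.

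The basic helix-loop-helix members were low or absent. *TWIST1* (chr7:19060614-19157259, minus strand) was listed at 0 in all 12 samples. *TWIST2* (chr2:239756673-239832230, plus strand) was at 0 in the 6 SW1990 samples and at 0.961, 0.467 and 0.341 RPKM in negative cells of CFPAC-1, with 1.33, 0.815 and 2.81 RPKM in its positive cells. The CFPAC-1 groups overlapped, and the highest value belonged to positive replicate 3, the sample with the fewest reads. The *TWIST2* change in CFPAC-1 was 1.28 (SE 0.41, unadjusted p = 0.00906, adjusted p = 0.0293 by limma) on 8 to 41 reads per sample. That call was lost when positive CFPAC-1 replicate 3 was left out (0.83), and also when any other sample was left out except negative replicate 1 and positive replicate 2 of CFPAC-1.

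*TCF4* (chr18:52889416-53332018, minus strand) encodes the E-protein E2-2 and is not the Wnt effector TCF7L2 that shares its older name. It was read at 0.0881, 0.0246 and 0.162 RPKM in negative SW1990 cells and at 0 in the 3 positive SW1990 samples. In CFPAC-1 it was read at 0.779, 0.732 and 0.956 RPKM in negative and 0.663, 0.609 and 0.459 RPKM in positive cells. The groups did not overlap in either line, yet no change was called, at -0.87 (SE 0.29, adjusted p = 0.0405) in SW1990 and -0.45 (SE 0.29, adjusted p = 0.244) in CFPAC-1. Set against a floor of 3 reads per sample (0.0159 RPKM), positive SW1990 cells held at least 5.75-fold lower *TCF4* than the mean of negative ones. That bound leaves out the spread of the negative samples, of which replicate 2, with 6 reads, lay near the floor. The call depended on the pseudocount and on negative SW1990 replicate 2, without which *TCF4* was called at -1.15.

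*PRRX1* (chr1:170631869-170708562, plus strand), a homeobox gene of embryonic mesenchyme, was listed at 0 in 9 samples. It read 0.0252 and 0.0246 RPKM in negative CFPAC-1 replicates 1 and 3 and 0.0493 RPKM in positive CFPAC-1 replicate 3. No change could be tested at this depth.

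**Figure D2:**
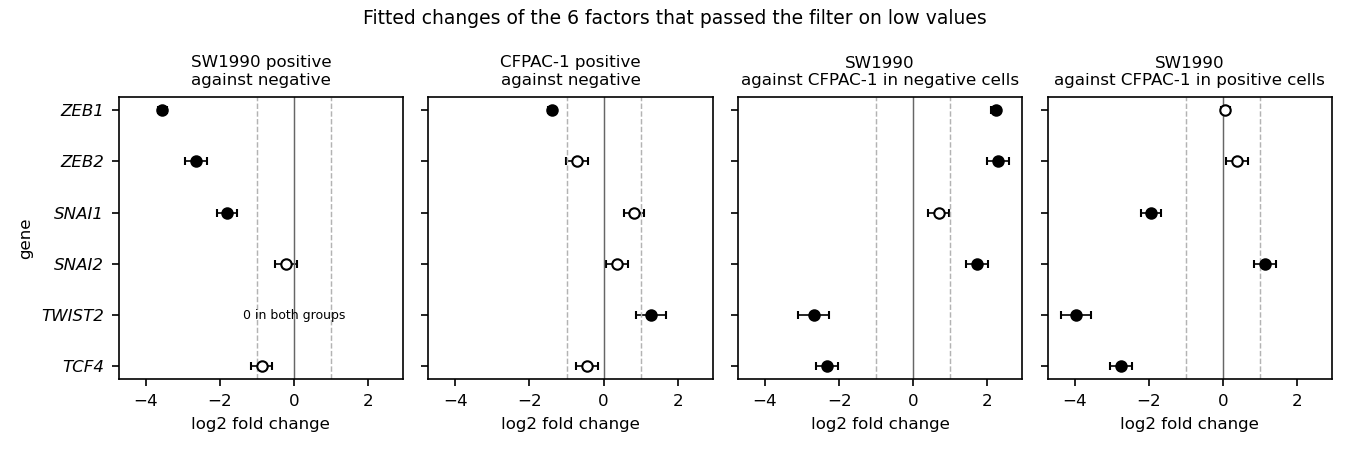
Fitted log2 fold changes (points) with standard errors (bars) of the 6 EMT factors that passed the filter, in 4 comparisons. Filled points were called and open points were not, and dashed lines mark a 2-fold change. *ZEB1* lies at -3.56 in SW1990 and -1.39 in CFPAC-1, and *SNAI2* lies near 0 between sorted cells but at 1.73 and 1.14 between lines.

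Whether the response to sorting differed between the lines was tested with the interaction term of the same fit. The term was called for 3 of the 6 factors tested, all lower in SW1990 than in CFPAC-1, against 17.8% of all genes called lower and 9.16% called higher at an adjusted p under 0.05. Beside *ZEB1* these were *SNAI1*, at -2.62 (SE 0.39, adjusted p = 0.000539), and *ZEB2*, at -1.92 (SE 0.42, adjusted p = 0.00545). For *ZEB2* the call was lost in 2 of 20 alternatives, among them a pseudocount of 0.01 (adjusted p = 0.0629). The median over all genes in this comparison was -0.15, so that values are slightly shifted, and the 3 calls were kept when each sample was centred on its median. *SNAI2* differed by -0.59 (SE 0.41, adjusted p = 0.328), *TCF4* by -0.42 (SE 0.41, adjusted p = 0.484) and *TWIST2* by -1.28 (SE 0.58, adjusted p = 0.125).

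Between the lines, negative cells differed in 5 of the 6 factors. *ZEB1*, *ZEB2* (2.30, SE 0.30) and *SNAI2* (1.73, SE 0.29) were higher in SW1990, against 21.9% of all genes called higher. *TCF4* and *TWIST2* were lower, against 15.0% of all genes called lower. *TCF4* was at -2.33 (SE 0.29), and with *TWIST2* at 0 in SW1990 the difference was at least 4.68-fold by group means. *SNAI1* was not called, at 0.69 (SE 0.28, adjusted p = 0.0436). The median over all genes was 0.19 here, and the 5 calls were kept after centring. With a pseudocount of 1 the calls of *ZEB2* (0.82), *TCF4* (-0.74) and *TWIST2* (-0.65) were lost, each falling under 2-fold.

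In positive cells 1 factor was higher in SW1990 than in CFPAC-1 and 3 were lower, against 14.8% and 13.7% of all genes. *SNAI2* was higher by 1.14 (SE 0.29, adjusted p = 0.00483), a call lost without positive SW1990 replicate 1 (0.84) or positive CFPAC-1 replicate 2 (1.03). *SNAI1* was lower, at -1.94 (SE 0.28, adjusted p = 7.54e-05). *TCF4* was at least 36.3-fold lower and *TWIST2* at least 11.7-fold lower by group means, both being at 0 in positive SW1990 cells. *ZEB2* was not called, at 0.38 (SE 0.30, adjusted p = 0.286). The positive and negative groups enter the sorting and the line comparisons alike, so these are not independent of each other.

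Genes that EMT factors are known to repress were called in SW1990 but not in CFPAC-1. Of the 22 genes of the E-cadherin programme, 21 rose in positive SW1990 cells and none fell, with a median log2 change of 3.04 against -0.037 over all genes. The share of all genes called higher there was 4.59%. In CFPAC-1, 0 of the 22 were called in either direction (median -0.024 against 0.051 over all genes), against 5.65% of all genes called higher and 4.13% lower. The interaction was called higher for 21 of the 22, against 9.16% of all genes. E-cadherin itself, *CDH1*, went from 12.6 ± 3.51 to 102 ± 7.69 RPKM in SW1990 (SD, n = 3), and its CFPAC-1 means were 79.0 ± 3.23 and 98.3 ± 1.91 RPKM, where the difference was not called.

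The 3 genes whose promoters are printed above were among those that rose in SW1990. *CRB3* went from 1.70 ± 0.411 to 14.9 ± 3.74 RPKM (log2 change 3.05, SE 0.19), *CLDN7* from 11.1 ± 4.09 to 87.8 ± 19.5 RPKM (3.01, SE 0.22) and *TMEM30B* from 2.54 ± 0.962 to 37.3 ± 7.40 RPKM (3.86, SE 0.21; SD, n = 3). In CFPAC-1 these 3 changed by 0.40 (SE 0.19), 0.11 (SE 0.22) and 0.40 (SE 0.21), and none was called. The tight junction gene *MARVELD3* had the largest change of the list, 4.24 (SE 0.30), and the desmosome gene *DSP* the smallest, 0.56 (SE 0.12), and *DSP* was the gene not called. Between negative cells, 19 of the 22 were lower in SW1990 than in CFPAC-1 and none was higher, against 15.0% of all genes called lower. Between positive cells 3 were lower and 2 higher, near or under the 13.7% and 14.8% of all genes called in those directions.

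**Figure D3:**
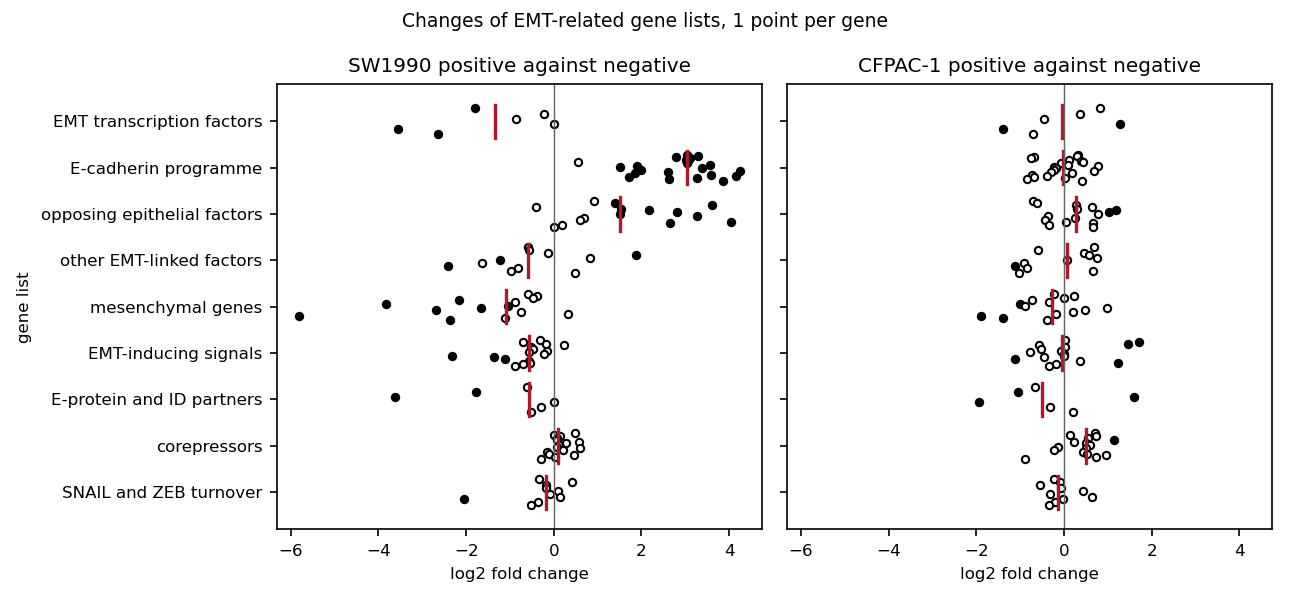
Log2 fold changes of positive against negative cells for 9 lists of EMT-related genes in SW1990 (left) and CFPAC-1 (right), with 1 point per gene. Filled points were called, open points were not, and red bars mark the median of a list. The E-cadherin programme has its median at 3.04 in SW1990 and -0.024 in CFPAC-1, and *TWIST2* is drawn at 0 in SW1990, where it had no reads.

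Of 15 epithelial transcription factors that oppose EMT factors, 9 were called higher in positive SW1990 cells and none lower (median 1.52, range -0.40 to 4.04). The share of all genes called higher in SW1990 was 4.59%. In CFPAC-1 2 of the 15 were called higher, against 5.65% of all genes, and none lower (median 0.28, range -0.71 to 1.18). The 2 were the Grainyhead factors *GRHL1* and *GRHL2*, which also rose in SW1990. Both were already named by the paper, from these same samples, as higher in positive cells. *GRHL2*, which is known to repress *ZEB1*, went from 4.70 ± 1.01 to 33.0 ± 1.43 RPKM in SW1990 (2.81, SE 0.16) and from 13.7 ± 1.08 to 28.6 ± 5.09 RPKM in CFPAC-1 (1.04, SE 0.16; SD, n = 3). The zinc finger gene *OVOL1*, another factor known to hold back *ZEB1*, changed most in SW1990, by 4.04 (SE 0.26), and by 0.048 (SE 0.26) in CFPAC-1.

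Hairpin genes of the miR-200 family gave few reads, which count longer transcripts over the hairpin and not the mature forms printed above. Negative SW1990 samples held 0 to 1 reads of *MIR200B* each, against 2 to 7 in positive samples, and 0 to 1 reads of *MIR429*, against 2 to 8. Both were called higher, whereas *MIR200A* with 0 to 1 and 1 to 7 reads was not. Set against a floor of 3 reads, group means gave a rise of at least 1.92-fold for *MIR200B* and 2.18-fold for *MIR429*. The *MIR200B* bound lies under the 2-fold threshold. Among CFPAC-1 samples *MIR200B* was not called, with 5 to 11 reads in the negative and 2 to 15 in the positive ones. *MIR200C* had at most 1 read in any sample and *MIR141* at most 4. *MIR205HG* is the host gene of miR-205, which also targets ZEB transcripts. This host gene rose in both lines, by 2.96 (SE 0.42) in SW1990 and 1.57 (SE 0.42) in CFPAC-1. The CFPAC-1 rise rests on at most 7 reads per negative and 17 per positive sample. Its highest value there, 1.92 RPKM, was in positive replicate 3, the sample with the fewest reads. The hairpin gene *MIR205* itself stayed at 0 reads throughout CFPAC-1. In SW1990 its count did not exceed 3 in any negative sample and was at least 14 in every positive one.

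Of 14 mesenchymal genes that EMT is known to raise, 7 were lower in positive SW1990 cells and none higher (median -1.09). In CFPAC-1 3 were lower and none higher (median -0.28). For all genes the shares called lower were 7.48% in SW1990 and 4.13% in CFPAC-1. The matrix genes *SPARC* and *FBN1* fell in both lines. *SPARC* went from 73.1 ± 15.9 to 1.46 ± 0.944 RPKM in SW1990 (-5.81, SE 0.52) and from 0.330 ± 0.203 to 0.00710 ± 0.0123 RPKM in CFPAC-1 (-1.90, SE 0.52; SD, n = 3). The intermediate filament gene *VIM* changed by -2.37 in SW1990 (SE 0.24, adjusted p = 1.45e-05) and stood at -0.38 (SE 0.24, adjusted p = 0.235) in CFPAC-1.

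Of 11 other EMT-linked transcription factors tested, 2 fell and 1 rose in SW1990, and 1 fell in CFPAC-1. Over all genes 7.48% were called lower and 4.59% higher in SW1990 and 4.13% lower in CFPAC-1, and counts this small are near those shares. *RUNX2*, an osteoblast factor linked to EMT, fell in both lines (-2.42 in SW1990 and -1.12 in CFPAC-1, SE 0.24 in each). The forkhead gene *FOXQ1* was the one that rose in SW1990, by 1.88 (SE 0.19). *FOXC2* reached 20.2 ± 1.83 RPKM in negative cells of CFPAC-1 and 28.5 ± 8.13 RPKM in positive ones (SD, n = 3), with at most 1 read in any SW1990 sample.

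E-proteins pair with TWIST proteins, and ID proteins block such dimers. Of 6 genes for these partners, none rose and 2 fell in positive SW1990 cells (median -0.56), while 1 rose and 2 fell in positive CFPAC-1 cells (median -0.50). All genes tested gave shares of 7.48% lower in SW1990, and 4.13% lower and 5.65% higher in CFPAC-1. *ID2* fell in both lines (-1.77 in SW1990 and -1.06 in CFPAC-1, SE 0.09 in each). *ID3* changed by -3.63 (SE 0.35) in SW1990 and by 1.59 (SE 0.35) in CFPAC-1, where its means were 0.297 and 1.03 RPKM, with an interaction of -5.22 (adjusted p = 2.75e-05).

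Of 16 corepressors and chromatin enzymes that ZEB and SNAI proteins recruit, none was called in SW1990 (median 0.098), and 1, the Polycomb methyltransferase *EZH2*, rose in CFPAC-1, by 1.15 (SE 0.17; list median 0.51). That count was near the 5.65% of all genes called higher in CFPAC-1. Of 10 genes for turnover of SNAIL and ZEB proteins, 1 fell in SW1990, the kinase gene *PRKD1* (-2.06, SE 0.25), and 0 were called in CFPAC-1, so that the share in SW1990 was near the 7.48% called lower among all genes.

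Among 16 EMT-inducing signals tested, 3 fell and none rose in SW1990 (median -0.56), and 1 fell and 3 rose in CFPAC-1 (median -0.033). The shares over all genes were 7.48% lower in SW1990, and 4.13% lower and 5.65% higher in CFPAC-1. The count that fell in CFPAC-1 was near its share. *TGFB2*, a ligand of the TGF-beta pathway, fell in both lines (-1.11 in SW1990 and -1.12 in CFPAC-1, SE 0.11 in each). *SMAD7*, an inhibitor induced by the pathway, changed most in SW1990 (-2.32, SE 0.14), and the cytokine gene *IL6* changed most in CFPAC-1 (1.70, SE 0.39). *SMAD4*, which carries TGF-beta signals to the nucleus, was listed at 0 in all CFPAC-1 samples.

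Markers of other cell types were read beside these values. Of 9 fibroblast markers, *THY1* was at 0 in all samples and only *COL1A1*, *LUM* and *PDGFRB* passed the filter, of which *LUM* and *PDGFRB* were called lower in positive SW1990 cells. The summed level of the 9 was 12.8 to 22.7 RPKM in negative SW1990 cells and 3.90 to 4.88 RPKM in positive ones, so in this line it moved with *ZEB1*. Most of it was *LUM*, with means of 13.2 and 2.43 RPKM in that order. In CFPAC-1, where *ZEB1* was also lower in positive cells, the sum was 1.42 to 1.85 RPKM in negative and 1.62 to 2.40 RPKM in positive cells. Of 7 blood and endothelial markers, 3 were lower in positive SW1990 cells, the leukocyte gene *PTPRC* had at most 3 reads in any sample, and the endothelial cadherin *CDH5* went from 15.6 ± 1.82 RPKM in negative SW1990 cells to 1.33 ± 0.255 RPKM in positive ones (SD, n = 3). In CFPAC-1 1 of the 7, the monocyte gene *CD14*, was lower in positive cells, with 8.61 to 9.57 RPKM in negative and 2.60 to 4.31 RPKM in positive samples (-1.54, SE 0.26, adjusted p = 0.000977), and it was also lower in positive SW1990 cells (-1.97, SE 0.26). Called lower over all genes were 7.48% in SW1990 and 4.13% in CFPAC-1. The summed level of the 7 was 50.4 to 67.6 RPKM in negative SW1990 cells and 17.7 to 36.5 RPKM in positive ones, and in CFPAC-1 it was 179.6 to 209.8 RPKM in negative and 163 to 228 RPKM in positive cells. Most of it was *CD68* in SW1990, and *CD68* and *LYZ* in CFPAC-1. *CD68* was called lower in positive SW1990 cells (-1.02, SE 0.25), where *LYZ* was not (-0.088, SE 0.26). In CFPAC-1 neither was called, at 0.19 (SE 0.25) for *CD68* and -0.14 (SE 0.26) for *LYZ*. The part of such cells in the results was not tested.

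For the 3 members with a mean of at least 1 RPKM, the genes with the nearest profile over the 12 samples were found by the root mean square difference of centred log2 values among 13266 genes. Nearest to *ZEB1* were *SERPINE2* (0.413), *FBXO32* (0.416) and *CYP27C1* (0.435). Nearest to *SNAI1* were *PLIN2* (0.332), *SH3PXD2B* (0.346) and *ENAH* (0.373), and nearest to *SNAI2* were *UAP1* (0.259), *PINX1* (0.265) and *UBE2F-SCLY* (0.266). *SERPINE2*, for example, averaged 93.8 RPKM in negative against 11.5 RPKM in positive cells of SW1990, and 29.9 against 15.3 RPKM in those of CFPAC-1.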

How the data were processed

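RNA from 12 samples of sorted CFPAC-1 and SW1990 cells was sequenced as poly(A)-selected libraries. The deposited values are RPKM, for which the authors, per the paper's methods, mapped reads to hg19/GRCh37 and scaled counts to library size and gene length in QuasR. The version, the annotation and the use of strand are not given in the sources used here, and the library kit named in the labels differs from that in the paper.

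Library totals and reads were recovered from the RPKM values through the lengths of single-exon genes, to within 0.01 of a read. Reads of *PRRX1*, seen in 3 samples, may be too low by a common factor. Totals of 9969697 to 26159330 limit the precision of low counts. Samples of the same group differed by more than counting error. The squared difference in reads, over that from counting alone, averaged 6.17 to 37.1 per gene between pairs. Intervals were not computed. Bounds set the mean of the other group against the floor of 3 reads, which covers counting error only and not the spread between samples.

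Genes with a mean of at least 0.1 RPKM over the 12 samples were kept (16236 of 23346). Log2(RPKM + 0.1) was fitted with limma 3.58.1 in R 4.3.3 (4 group means, eBayes with an intensity trend), 2-sided, with p-values adjusted by Benjamini-Hochberg over all genes tested. The study named TCC, a count method, which was not used. In the 4 comparisons of groups a call needed over 2-fold and an unadjusted p under 0.01, and in the interaction an adjusted p under 0.05. The fit was tested on simulated data.

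The members and the gene lists were chosen with earlier results of these data known. Some listed genes had been named by the paper from these same samples, so list counts are not independent of it. Among them were *ZEB1*, *ZEB2*, *GRHL1*, *GRHL2*, *GRHL3*, *RUNX2*, *SPARC*, *FBN1*, *FN1* and *TGFB2*. All members were named, with list genes called in both lines or changed most in a line, and the 3 genes of nearest profile. *CDH1*, *ZEB1-AS1*, *DSP*, *VIM*, *CDH5*, *CD68*, *LYZ*, *TSPAN8*, *CLDN18*, the keratins, *FOXC2* and the genes with printed promoters were named outside that rule, after their values were seen. *PATJ* was matched as *INADL*. E-boxes were searched in RefSeq promoter windows on both strands. Alternatives were other pseudocounts, filters, scalings and thresholds, a fit to 2 groups, no trend, a replicate block, voom on recovered reads, and leaving out each sample.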

Additional observations from a re-analysis of the deposited data

Results flagged for a closer look

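For 3 genes the change from GCTM-5 negative to positive cells differed between SW1990 and CFPAC-1 by the interaction term in limma. The difference, SW1990 minus CFPAC-1 on the log2 scale, was -2.62 for *SNAI1* (adjusted p = 0.000539), -2.17 for *ZEB1* (adjusted p = 7.98e-06) and -1.92 for *ZEB2* (adjusted p = 0.00545). *ZEB1* was lower in 3 of 3 positive samples than in all negative samples of its line in both lines, while *SNAI1* moved down in SW1990 and stood at 0.82, not called, in CFPAC-1.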

How the results depend on the processing

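Of the alternatives tried for each result, 3 turned a sign, all of changes that were not called: *SNAI2* in SW1990 (0.028 without negative SW1990 replicate 1, and -0.56 to 0.028 over all samples left out in turn), *ZEB1* between positive cells (-0.013 without positive SW1990 replicate 1, and -0.013 to 0.15 in turn) and the *TCF4* interaction (0.084 with a pseudocount of 1). The 2 calls in CFPAC-1 became 1, *ZEB1* alone, with a pseudocount of 1 or 0.01, a mean of at least 1 RPKM, centring, or a fit to that line alone, and the count ran from 1 to 2 when samples were left out in turn. The 5 calls between negative cells became 2 with a pseudocount of 1 or a mean of at least 1 RPKM, and the 4 between positive cells became 2 with that mean; only 3 members reach this mean. With the replicate number as a block, the CFPAC-1 count was 1 and no other count changed. Correlations of same-numbered samples ran from 0.016 to 0.185 in SW1990 and from -0.059 to 0.001 in CFPAC-1. With 3 samples in a group these cannot exclude that same-numbered fractions came from 1 sort. The main fit did not pair samples by number. *TCF4* in SW1990 was called with a pseudocount of 0.01 (-3.06) and with voom (-4.72). Depth limits *ZEB2* in positive cells, *TCF4* in SW1990 and *PRRX1*, each read from few or no fragments.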
